A study of Mus musculus with 18 samples.

Results

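Late pregnancy and endurance running are both states in which the healthy mouse heart grows, and they were set directly against each other here, with no sedentary array in the difference. The comparison took the 3 arrays labelled LP, from left ventricles of pregnant mice at 18 to 19 days of gestation, and the 3 arrays labelled 21EX, from left ventricles of mice given 21 days of voluntary wheel running, which made 6 of the 18 arrays in the series. All mice were female, wild type, of the C57Bl/6 strain and 3 to 4 months old, and, by the methods of the study, each array carried RNA pooled from 2 to 3 hearts. The other groups, with 3 arrays each, were mid-pregnancy (MP, day 11), the first 12 hours after birth (0PP), 7 days of running (7EX) and sedentary non-pregnant mice in diestrus (Sed/NP), and they served here to show where the LP and 21EX levels lay. Running wheels were used at will, so the distance run was not set, and the time of day at which the hearts were taken is not given in the sources used here.

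Pregnancy and endurance running both load the heart with volume, and the ventricle grows without the scarring seen in disease. In pregnancy the load is continuous and comes with high levels of steroid hormones, and late in gestation the mother shifts toward burning fat and spares glucose for the fetus. In running the load comes in bouts, which in mice fall mostly in the dark hours, and steroid hormones are not at the levels of pregnancy.

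The LP and 21EX arrays were of similar quality. Array medians lay between 4.93 and 5.02 on the log2 scale over all 18 arrays, and the 3′ minus 5′ signal of beta-actin, a measure of RNA integrity, was 1.26, 1.17 and 1.28 in LP arrays and 1.17, 1.19 and 1.22 in 21EX arrays. The signal was less even in 2 groups used further below, at 1.32, 1.32 and 1.35 in MP arrays and 1.09, 1.08 and 1.05 in 7EX arrays. Heart muscle as the source was borne out by 10 cardiomyocyte markers, whose mean log2 value was 13.93 to 13.98 in LP arrays and 13.94 to 13.97 in 21EX arrays. The mean of 8 atrial markers was 7.41 to 8.31 in LP arrays and 7.51 to 8.45 in 21EX arrays. The atrial mean thus varied within each group, and the part of atrial tissue was not tested. An LP array and a 21EX array differed by 0.177 ± 0.0154 log2 units per probe set (mean ± SD over 9 pairs), against 0.155 between LP arrays and 0.147 between 21EX arrays (3 pairs each). LP replicate 3 lay 0.164 and 0.166 from the other LP arrays, which differed from each other by 0.135. The pairs of LP with 21EX ranged from 0.158 to 0.199, so they overlapped with the pairs within LP. The 9 pairs reuse the same arrays and are not independent.

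A total of 45037 probe sets were tested, and a probe set was called where limma's moderated test gave a Benjamini-Hochberg adjusted p under 0.05 and LP and 21EX differed by at least 0.81 log2 units, a 75% change. By that rule 207 probe sets were called (0.46%), and 138 of 18193 genes (0.759%) were called at one or more of their probe sets, 87 higher and 51 lower in LP hearts. Where each gene was read at its brightest probe set alone, which is how single genes are given from here on, 108 genes were called (0.594%). Of these, 65 rose (0.357% of all genes) and 43 fell (0.236%) in LP. The 3 LP arrays lay wholly outside the range of the 3 21EX arrays in 63 of the 65 and in 42 of the 43, where 7.76% of all genes had LP arrays wholly above and 15.6% wholly below. The rule for a call itself favours such separation. Without the fold limit, 760 genes passed (4.18%), of which 275 were higher (1.51%) and 485 lower (2.67%) in LP, and this wider count is the one used for gene lists. This wider count depended on single arrays, and it was 454 without the second LP array, 448 without the third, 494 without the second 21EX array and 396 without the third. The shares of 1.51% and 2.67% are those to set beside the counts higher and lower in each list. Some lists are also given at an unadjusted p under 0.05 or by Cyber-T, a Bayes-regularised test. For neither was the share of all genes counted, so these counts cannot be called high or low. Each p-value measures the spread between pooled arrays.

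Zbtb16, a zinc finger repressor of transcription, was at 9.62, 9.82 and 9.81 in LP arrays and at 7.28, 7.73 and 7.50 in 21EX arrays, and it was 4.74-fold higher in LP (log2 difference 2.24 ± 0.30 SE, adjusted p = 0.000405). Angptl4, the secreted inhibitor of lipoprotein lipase, was at 8.69, 8.51 and 9.93 in LP and at 7.18, 6.66 and 7.09 in 21EX (difference 2.07 ± 0.39, adjusted p = 0.00527). Mt2, a metallothionein that binds zinc and copper, was at 10.75, 10.58 and 12.84 in LP and at 9.43, 9.33 and 9.62 in 21EX (difference 1.93 ± 0.36, adjusted p = 0.00479). The 3 genes were picked among those with no overlap between groups, but the third LP array was far above the other 2 for both Angptl4 and Mt2. Without that array the difference was 1.62 for Angptl4 (adjusted p = 0.0343) and 1.20 for Mt2 (adjusted p = 0.000449).

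Fmo2, a flavin-containing monooxygenase, was at 8.99, 9.15 and 9.24 in LP and at 7.52, 6.97 and 7.46 in 21EX (difference 1.81 ± 0.18, adjusted p = 8.67e-05). Fam107a, a stress-inducible actin-binding protein, was at 7.95, 7.45 and 7.80 in LP and at 5.63, 6.05 and 6.12 in 21EX (difference 1.80 ± 0.24, adjusted p = 0.000444). No LP array of these genes came near a 21EX array, and the same was true of Timp4, an inhibitor of matrix metalloproteinases that the heart expresses strongly. Timp4 was at 9.45, 9.32 and 9.12 in LP and at 7.63, 7.50 and 7.58 in 21EX (difference 1.72 ± 0.24, adjusted p = 0.000536). Cyp1a1, the P450 enzyme induced through the aryl hydrocarbon receptor, stood out for its spread, with 7.37, 6.12 and 5.53 in LP and 5.29, 4.82 and 4.70 in 21EX (difference 1.40 ± 0.31, adjusted p = 0.0159). Its difference was 0.89 without the first LP array (adjusted p = 0.0462), and it missed the threshold without the second 21EX array (adjusted p = 0.0617) or the third (0.0863).

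**Figure D1:**
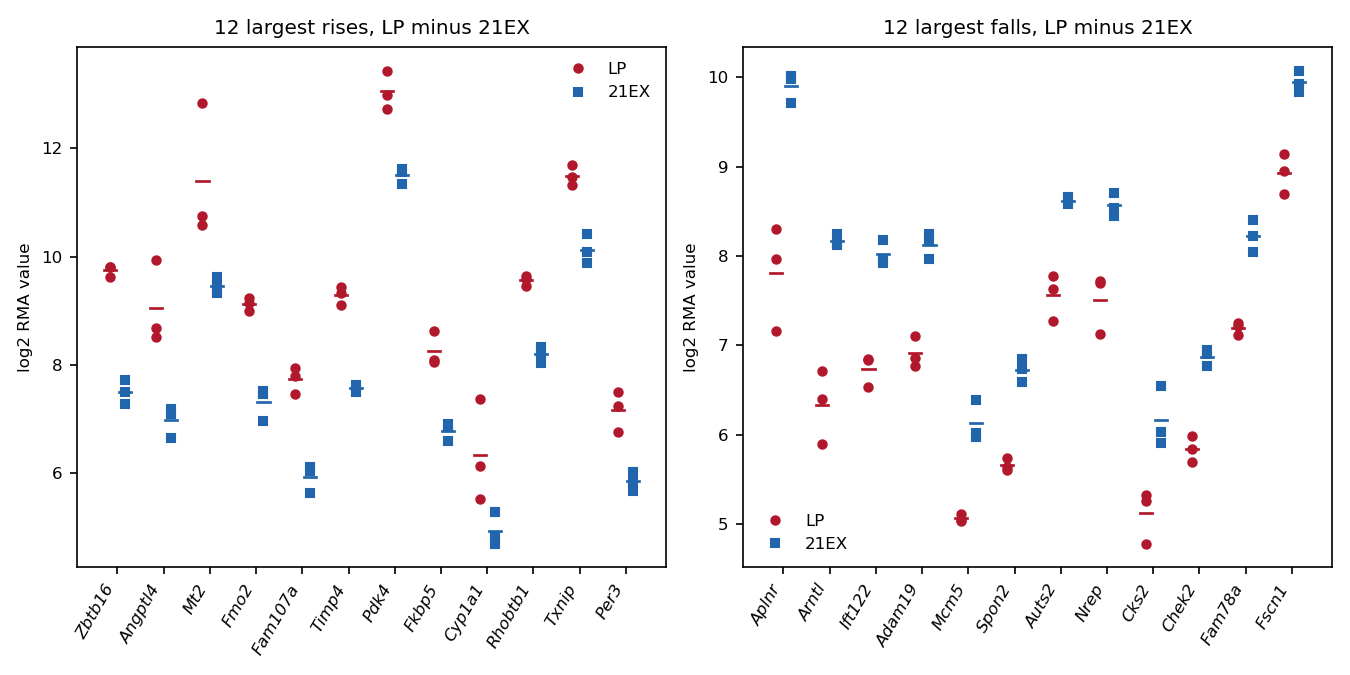
Log2 RMA values of the 12 genes with the largest rises (left) and the 12 with the largest falls (right) in LP against 21EX, with each point an array (LP circles, 21EX squares) and each short line a group mean. All 24 genes were picked among called genes whose 3 LP points lie outside the range of the 3 21EX points, and single high LP points are seen for Angptl4, Mt2 and Cyp1a1.

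The largest fall was that of Aplnr, the receptor of the peptide apelin on endothelial and heart muscle cells. It was at 8.30, 7.97 and 7.16 in LP and at 9.71, 10.01 and 9.98 in 21EX, a 4.26-fold lower level in LP (difference −2.09 ± 0.30, adjusted p = 0.000536), and its dimmer probe set differed by −1.51. Arntl, which encodes the clock activator BMAL1, was next and is given with the clock genes. Ift122, a part of the transport machinery of cilia, was at 6.85, 6.83 and 6.54 in LP and at 7.93, 7.96 and 8.18 in 21EX (difference −1.28 ± 0.21, adjusted p = 0.00151). Adam19, a membrane-bound metalloprotease, was at 6.77, 6.86 and 7.11 in LP and at 7.97, 8.25 and 8.17 in 21EX (difference −1.21 ± 0.15, adjusted p = 0.000296). For both genes the lowest 21EX array was well above the highest LP array. The remaining 8 of the 12 largest falls differed by −1.06 to −1.02, and they were Mcm5 (a subunit of the replicative helicase), Spon2 (a secreted matrix protein), Auts2, Nrep, Cks2 (a partner of cyclin-dependent kinases), Chek2 (a DNA damage checkpoint kinase), Fam78a and Fscn1 (an actin-bundling protein). Of these, Mcm5 and Cks2 depended on single arrays, since Mcm5 had an adjusted p of 0.0798 without the third 21EX array and Cks2 had 0.075 without the third LP array and 0.0879 without the third 21EX array.

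Genes for burning fat were higher in LP hearts than in 21EX hearts, while none of the genes listed for glucose use or the respiratory chain passed the adjusted p. Of 24 measured genes of fatty acid uptake and oxidation, 15 rose, none fell and all 24 had a higher mean in LP. Their differences were small, from 0.05 to 0.70 with a median of 0.37, against a median of −0.02 over all genes, and none reached the 75% limit. Decr1, an auxiliary enzyme for unsaturated fatty acids, was at 12.11, 12.10 and 12.23 in LP and at 11.65, 11.67 and 11.60 in 21EX (difference 0.50 ± 0.07, adjusted p = 0.000536). Acaa2, the last enzyme of the mitochondrial beta-oxidation spiral, differed by 0.49 ± 0.07 (adjusted p = 0.000921), and Hadha, the alpha subunit of the trifunctional protein, by 0.42 ± 0.07 (adjusted p = 0.00225). The uptake proteins Cd36 and Slc27a1 differed by 0.43 and 0.44, and Cpt1a, which lets fatty acids into mitochondria, by 0.47 (adjusted p = 0.00921, 0.00493 and 0.0122). For Lpl and Fabp3, both among the brightest genes on the arrays with means of 14.25 and 14.22, the difference was 0.05 with adjusted p of 0.812 and 0.77. Whether a difference could be seen at that brightness was not tested. Depending on which array was left out, 10 (without the third LP array) to 14 of the 24 passed. Cd36 was at an adjusted p of 0.057 without the third LP array and 0.0652 without the third 21EX array, and Cpt1a at 0.0533 without the second LP array, 0.0727 without the third and 0.0748 without the second 21EX array.

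Within a list of 21 fasting-type targets of the PPAR receptors, 12 rose, none fell and 5 passed the 75% limit, with a median difference of 0.44. Pdk4, the kinase that shuts off pyruvate dehydrogenase and so spares glucose, was at 12.99, 12.73 and 13.44 in LP and at 11.56, 11.62 and 11.35 in 21EX (difference 1.54 ± 0.30, adjusted p = 0.00641). Txnip, an arrestin that limits glucose uptake, was at 11.33, 11.47 and 11.69 in LP and at 10.42, 9.87 and 10.08 in 21EX (difference 1.37 ± 0.20, adjusted p = 0.000797). The acyl-CoA thioesterase Acot1 was at 8.52, 8.43 and 8.87 in LP and at 7.39, 7.36 and 7.41 in 21EX (difference 1.22 ± 0.21, adjusted p = 0.00225). Together with Angptl4, these genes were raised in every LP array above every 21EX array, and so was Ucp3, a mitochondrial uncoupling protein, at 8.90, 8.85 and 9.20 in LP and 8.08, 7.92 and 7.98 in 21EX (difference 0.99 ± 0.20, adjusted p = 0.00811). Smaller rises were measured for the peroxisomal enzyme Ehhadh (0.72 ± 0.11), the thioesterase Acot2 (0.70 ± 0.10) and the retinol saturase Retsat (0.66 ± 0.10). Leaving out 1 array at a time gave 8 (without any one of the 21EX arrays) to 10 rises in the list. The mean of Sed/NP arrays was 12.14 for Pdk4, 7.31 for Angptl4, 7.16 for Acot1, 10.63 for Txnip and 8.45 for Ucp3. Each was below the LP mean (13.05, 9.04, 8.61, 11.49 and 8.98). The 21EX means were 11.51, 6.98, 7.39, 10.13 and 7.99, below Sed/NP for each gene except Acot1. Cpt1a of the fatty acid list averaged 8.73 in LP, 8.60 in Sed/NP and 8.26 in 21EX, so its sedentary level lay nearer to LP. For Cd36 (12.72, 12.41 and 12.29) and Slc27a1 (8.57, 8.25 and 8.12) the sedentary level lay nearer to 21EX.

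Of 21 measured genes in a list of lipid synthesis and storage, 3 rose and 2 fell, with a median of −0.03. The triglyceride lipase Pnpla2 (0.59 ± 0.11, adjusted p = 0.00436) and Gpam, which starts glycerolipid synthesis (0.53 ± 0.09, adjusted p = 0.00241), were higher in LP, the first of which breaks lipid down. The desaturase Scd2 was at 6.86, 7.09 and 6.71 in LP and at 7.87, 7.86 and 7.76 in 21EX (difference −0.94 ± 0.12, adjusted p = 0.000213), and the elongase Elovl5 was lower by 0.43 on the log2 scale (adjusted p = 0.00322). None of 22 genes of glucose transport, glycolysis and glycogen passed the test by limma, with differences from −0.32 to 0.25, and none of 26 genes of the respiratory chain and mitochondrial biogenesis, with differences from −0.23 to 0.59. The median difference was −0.04 for the 22 and 0.02 for the 26, against −0.02 over all genes. At an unadjusted p under 0.05, 6 of the 22 passed, of which 2 were higher in LP, and 2 of the 26, of which 1 was higher. Cyber-T passed none of the 22 and 1 of the 26. The share of all genes at either limit was not counted.

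**Figure D2:**
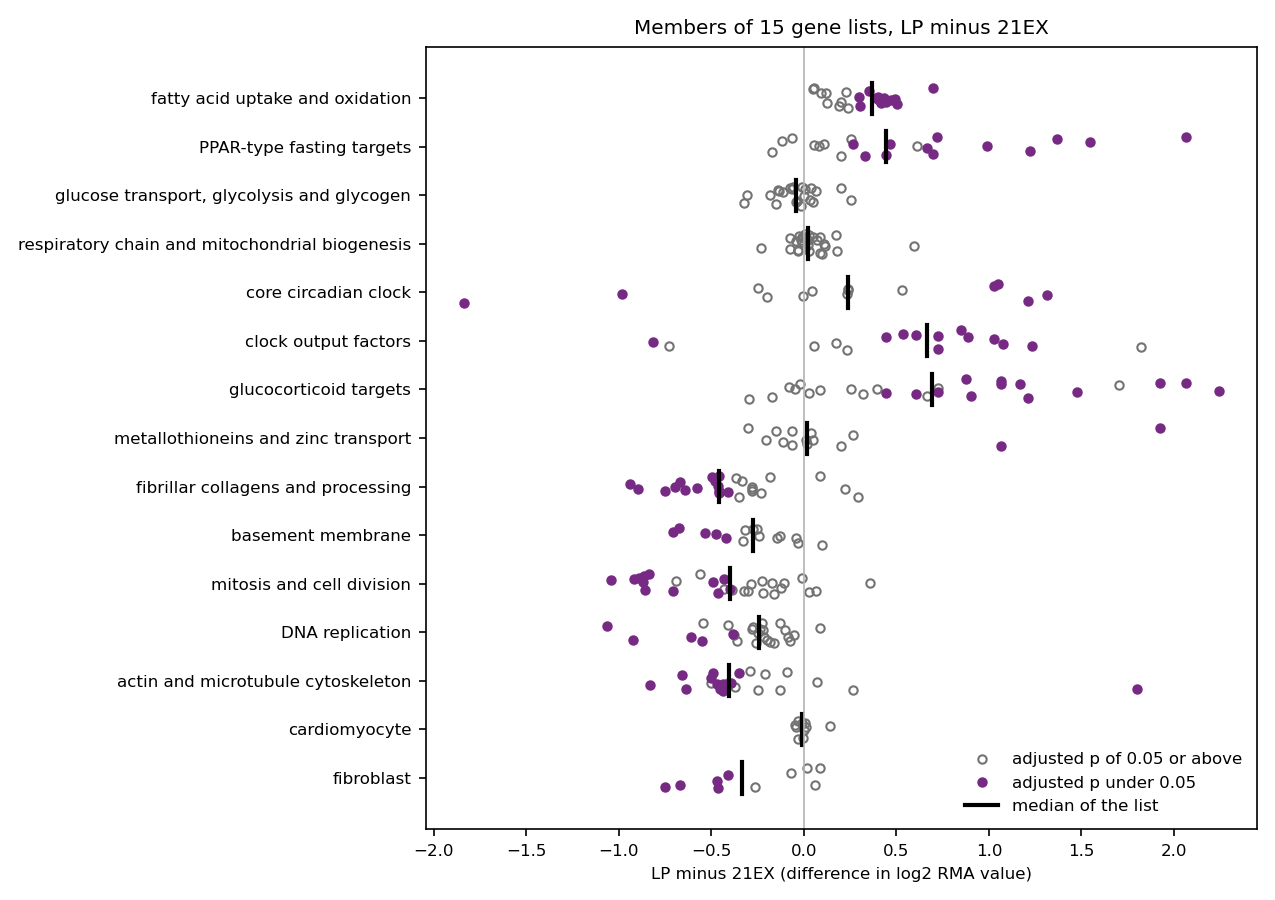
LP minus 21EX in log2 units for each measured member of 15 gene lists, 13 of function and 2 of cell type markers, with filled points for members at an adjusted p under 0.05, open points for the others and a black bar at the median of the list. Fatty acid genes lie to the right of 0, collagen genes mostly to the left, and cardiomyocyte markers within 0.14 of 0.

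Clock genes moved in both directions, with the activators Arntl and Npas2 lower and several repressors and output factors higher in LP. BMAL1 pairs with CLOCK or NPAS2 on E-boxes (CACGTG) to switch on the period genes, Ciart, Nr1d1 and Nr1d2, whose products feed back on the activators, and the output factors Dbp, Tef and Hlf bind D-boxes (TTATGTAA). Arntl was at 6.40, 5.89 and 6.71 in LP and at 8.12, 8.25 and 8.16 in 21EX (difference −1.84 ± 0.28, adjusted p = 0.000994). Npas2 was at 4.72, 4.39 and 5.23 in LP and at 5.80, 5.66 and 5.84 in 21EX (difference −0.98 ± 0.26, adjusted p = 0.0417). Each LP array was thus below each 21EX array for Arntl and Npas2, while Clock differed by −0.20 with overlapping arrays (adjusted p = 0.434). For Per1, Per3, Nr1d2 and Ciart each LP array was above each 21EX array. Per1 was at 8.35, 7.87 and 8.14 in LP and at 6.85, 7.07 and 6.80 in 21EX (difference 1.21 ± 0.19, adjusted p = 0.00116). Per3 was at 7.24, 7.50 and 6.75 in LP and at 6.02, 5.86 and 5.68 in 21EX (difference 1.31 ± 0.29, adjusted p = 0.0153). Nr1d2, the nuclear receptor REV-ERB beta, was at 10.89, 10.92 and 10.89 in LP and at 10.04, 9.91 and 9.60 in 21EX (difference 1.05 ± 0.18, adjusted p = 0.00269). Ciart, a circadian repressor, differed by 1.03 ± 0.23 (adjusted p = 0.0162).

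Over the whole list of 14 core clock genes, 4 rose and 2 fell. Per2 was not called at its brightest probe set (0.53 ± 0.16, adjusted p = 0.0811), although a dimmer one gave 2.13, and for Nr1d1 the difference was 0.23 (adjusted p = 0.525). Of 16 output genes, 10 rose and 1 fell (Leo1, a part of the PAF1 elongation complex, −0.81 ± 0.11), with a median of 0.67. Hlf was at 7.77, 8.02 and 7.40 in LP and at 6.50, 6.47 and 6.52 in 21EX (difference 1.23 ± 0.20, adjusted p = 0.00139), and Tef differed by 0.85 ± 0.16 (adjusted p = 0.00529). Usp2, a deubiquitinase with a strong daily rhythm, was at 10.95, 11.05 and 10.88 in LP and at 9.90, 9.97 and 9.79 in 21EX (difference 1.07 ± 0.14, adjusted p = 0.000444). Dbp had a difference of 1.82 ± 0.51 and an adjusted p of 0.0637, and was called at a dimmer probe set (1.80), with 9.95, 10.37 and 9.93 in LP at the brighter one all above 8.68, 8.04 and 8.06 in 21EX, and Nfil3, which opposes Dbp at D-boxes, had −0.73 ± 0.20 (adjusted p = 0.052, and 0.0417 without the first 21EX array). Ciart stands in both clock lists. Without the third 21EX array the core list gave 2 rises, with Per3 at an adjusted p of 0.0781 and Ciart at 0.0543, and without the second LP array Per3, Ciart and Npas2 were at 0.0802, 0.0746 and 0.184. Npas2 missed the threshold without any 1 array except the third LP array (0.0835 to 0.184), and Ciart without any 1 of the 21EX arrays (0.051 to 0.0558). With the time of day of killing not given in the sources used here, its part in these differences was not tested.

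Of the clock genes described above that rose in LP, Per1, Ciart, Tef and Per3 held one of these motifs, and Nr1d2, Hlf and Usp2 held neither within the 250 bases, nor did Dbp or the other of the 2 Per1 starts. The stretches with a match are shown because E-box and D-box letters are where the measured activators and output factors bind. They are RefSeq promoter sequences on GRCm38.p6, read 5′ to 3′ on the strand of the gene within the 250 bases before its start, with every motif match on either strand in capitals. Per1 lies at chr11:69098769-69098838 (+), Ciart at chr3:95882259-95882358 (−), Tef at chr15:81802518-81802587 (+) and Per3 at chr4:151044786-151044885 (−).
Per1: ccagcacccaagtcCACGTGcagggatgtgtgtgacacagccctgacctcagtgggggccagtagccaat
Ciart: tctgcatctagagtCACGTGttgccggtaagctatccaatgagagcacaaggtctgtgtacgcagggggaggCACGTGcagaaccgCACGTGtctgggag
Tef: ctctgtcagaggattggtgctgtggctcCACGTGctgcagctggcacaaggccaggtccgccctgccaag
Per3: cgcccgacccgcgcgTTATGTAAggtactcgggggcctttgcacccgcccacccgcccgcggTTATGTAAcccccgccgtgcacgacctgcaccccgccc
Ciart thus held 3 E-boxes, Per1 and Tef 1 each, and Per3 2 D-boxes. CACGTG was found in 6.02% and TTATGTAA in 0.819% of 32841 promoters. Among 69 promoters of called genes higher in LP, 9 (13.0%) held CACGTG, and among 47 promoters of called genes lower in LP, 2 (4.26%) did. The 9 include the promoters of Ciart, Per1 and Tef given here, and the share without them was not counted. TTATGTAA was in 2.9% of the 69 promoters and in none of the 47. These shares were not tested.

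Genes listed as targets of the glucocorticoid receptor, the sensor of cortisol-type stress hormones, were higher in LP in 13 of 26 measured cases and lower in none, with a median of 0.69. Of these, 10 passed the 75% limit. Besides Zbtb16, the co-chaperone Fkbp5, which dampens the receptor, was at 8.09, 8.05 and 8.63 in LP and at 6.59, 6.90 and 6.84 in 21EX (difference 1.48 ± 0.22, adjusted p = 0.0009). The study relates the rise of Fkbp5 in MP and LP to progesterone, and the part of either hormone was not tested here. Map3k6, a stress-activated kinase, was at 6.81, 6.84 and 7.32 in LP and at 5.81, 6.06 and 5.90 in 21EX (difference 1.07 ± 0.17, adjusted p = 0.00116). The transcription factor Cebpb (0.88 ± 0.17, adjusted p = 0.00606), the phosphoinositide kinase subunit Pik3r1 (0.90 ± 0.16, adjusted p = 0.00261) and Tsc22d3, which encodes the leucine zipper GILZ (0.72 ± 0.14, adjusted p = 0.00666), were likewise higher, with no overlap between arrays. Klf9, a Krüppel-like factor, was at 12.09, 12.11 and 12.07 in LP and at 11.53, 11.47 and 11.44 in 21EX (difference 0.61 ± 0.08, adjusted p = 0.000444). Per1, Klf9 and Tsc22d3 also stand in the clock lists, Angptl4 in the PPAR list and Mt1 and Mt2 in the metallothionein list, so these counts are not independent.

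Of 14 genes of metallothioneins and zinc transport, 2 rose, Mt1 and Mt2, and the other metallothioneins, Mt3 and Mt4, and the zinc transporters did not pass. Mt1 was at 12.67, 12.62 and 13.69 in LP and at 11.88, 11.88 and 12.05 in 21EX (difference 1.06 ± 0.18, adjusted p = 0.00256), again with the third LP array highest, and it is read by a probe set that may also bind family members. With only the 6 arrays of LP and 21EX in the fit, the adjusted p was 0.0674 for Mt1 and 0.0931 for Mt2. The third LP array was also high for the acute phase genes Lcn2 (9.09, against 5.50 and 5.23 in the other LP arrays and 4.60 to 5.16 in 21EX) and Serpina3n (8.38, against 5.93 and 5.65 in the other LP arrays and 5.32 to 5.51 in 21EX), neither of which was called (adjusted p = 0.157 and 0.147, and 0.0421 and 0.0347 without the second LP array). Its part in the metallothionein levels was not tested beyond the values without it. Metal response elements, which hold the letters TGCACNC or TGCGCNC, are shown for both because the 2 neighbouring genes share this known control. Mt1 is given at chr8:94179019-94179088 (+) and Mt2 at chr8:94172468-94172587 (+).
Mt1: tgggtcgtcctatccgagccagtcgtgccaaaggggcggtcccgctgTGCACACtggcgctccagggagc
Mt2: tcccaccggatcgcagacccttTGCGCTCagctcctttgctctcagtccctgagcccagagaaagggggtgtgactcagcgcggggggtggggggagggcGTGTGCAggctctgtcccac
The 250 bases held 1 match for Mt1 and 3 for Mt2, of which 2 are shown. TGCACNC was in 10.4% and TGCGCNC in 12.5% of all promoters. Among promoters of called genes, TGCACNC was in 15.9% of those higher and 10.6% of those lower in LP. For TGCGCNC the shares were 18.8% and 21.3%.

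Enzymes of steroid and foreign compound metabolism were higher in LP in a few cases. Of 28 P450 and related genes 5 rose and 1 fell, and of 18 alcohol, aldehyde and transferase enzymes 4 rose and 1 fell. Sult1a1, which adds sulfate to phenols and catechols, was at 9.66, 9.68 and 10.10 in LP and at 8.71, 8.67 and 8.55 in 21EX (difference 1.17 ± 0.17, adjusted p = 0.000625). The alcohol dehydrogenase Adh1 was at 8.20, 7.82 and 8.42 in LP and at 7.24, 7.12 and 7.11 in 21EX (difference 0.98 ± 0.20, adjusted p = 0.0103), and without the third LP array its adjusted p was 0.0612. The methyltransferase Inmt differed by 0.95 ± 0.18 (adjusted p = 0.00469) and Ephx2, the soluble epoxide hydrolase, by 0.61 ± 0.09 (adjusted p = 0.00115). Cyp1b1 differed by 0.82 ± 0.20 (adjusted p = 0.0329), and the difference was 0.48 without the third LP array (adjusted p = 0.123) and missed the threshold without any 1 of the 21EX arrays (0.0832 to 0.103).

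Matrix genes were lower in LP hearts. Of 25 genes of fibrillar collagens and their processing, 14 fell and none rose, with a median of −0.46, and of 15 basement membrane genes 5 fell and none rose, with a median of −0.27. Col3a1, a major collagen of the cardiac interstitium, was at 10.94, 10.73 and 10.62 in LP and at 11.54, 11.42 and 11.57 in 21EX (difference −0.75 ± 0.13, adjusted p = 0.00274). Col1a1 was at 7.78, 7.65 and 7.60 in LP and at 8.30, 8.32 and 8.42 in 21EX (difference −0.67 ± 0.13, adjusted p = 0.00706). Col14a1, a fibril-associated collagen, and Col15a1, a collagen beside basement membranes, passed the 75% limit, with differences of −0.94 ± 0.16 and −0.90 ± 0.12 (adjusted p = 0.00219 and 0.000444). Of the network-forming collagens of the basement membrane, Col4a1 was at 10.87, 10.81 and 10.89 in LP and at 11.53, 11.56 and 11.50 in 21EX (difference −0.67 ± 0.10, adjusted p = 0.000737). The crosslinking enzyme Loxl1 (−0.69 ± 0.09, adjusted p = 0.000444) and perlecan, encoded by Hspg2 (−0.48 ± 0.09, adjusted p = 0.00561), were lower as well. Leaving out 1 array at a time gave 9 (without the third 21EX array) to 14 falls among the 25 collagen genes.

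Enzymes that cut the matrix and their inhibitors went both ways, with 4 of 23 higher and 6 lower. Along with Timp4, the inhibitor Timp3 was higher, at 10.43, 10.69 and 10.63 in LP and at 9.59, 9.43 and 9.52 in 21EX (difference 1.07 ± 0.15, adjusted p = 0.000444). The gelatinase Mmp2 was lower (−0.57 ± 0.09, adjusted p = 0.00141). Mmp3, stromelysin-1, was at 5.95, 5.25 and 7.08 in LP and at 4.97, 4.62 and 4.96 in 21EX (difference 1.25 ± 0.28, adjusted p = 0.0184), and without the third LP array it differed by 0.75 with an adjusted p of 0.051 (0.0841 without the second 21EX array and 0.0544 without the third). Cilp, a matrix protein of cartilage and heart, was lower by 0.85 on the log2 scale (adjusted p = 0.00493).

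Among markers of fibroblasts, those that fell were mostly matrix genes. Of 10 measured, 5 fell and none rose, and 3 of the others had a higher mean in LP. The mean log2 level of the 10, which include collagen genes, was 9.86 to 9.98 in LP arrays against 10.19 to 10.24 in 21EX arrays. Of the 5 that fell, 4 are themselves in the collagen list, and the fifth was Tcf21, a fibroblast transcription factor (−0.47 ± 0.10, adjusted p = 0.00943, and 0.0558 without the third LP array). The remaining 5 differed by −0.27 to 0.09, among them Dcn (0.09, adjusted p = 0.701), and each of the 10 markers had a mean log2 value above 5. In RNA from whole ventricle, fewer cells of a type and less RNA per cell cannot be told apart, and the part of fibroblast content in the collagen result was not tested.

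Cell division genes were lower in LP, with 12 of 29 mitotic genes and 5 of 26 DNA replication genes below 21EX and none above. The median difference was −0.40 for mitosis and −0.24 for replication. Cdk1, the kinase that drives entry into mitosis, was at 5.11, 5.41 and 5.31 in LP and at 6.13, 6.18 and 6.19 in 21EX (difference −0.89 ± 0.14, adjusted p = 0.00106). Its cyclin partners Ccna2 (−0.92 ± 0.17, adjusted p = 0.00426) and Ccnb2 (−0.87 ± 0.16, adjusted p = 0.00347) fell by a similar amount, and so did Birc5, survivin (−0.84 ± 0.16, adjusted p = 0.00606). Birc5 averaged 3.70 in LP and 4.54 in 21EX arrays, near background, so its difference is less certain. Tk1, the thymidine kinase of S phase, differed by −0.55 ± 0.10 (adjusted p = 0.00493). Cdk1 averaged 5.28 in LP, 6.16 in 21EX, 6.88 in 7EX and 5.56 in Sed/NP arrays, and Ccna2 averaged 4.70 in LP, 5.61 in 21EX and 5.24 in Sed/NP arrays, so that the sedentary level lay nearer to LP for Cdk1 and nearer to 21EX for Ccna2. The count of mitotic genes depended on single arrays. It was 6 without the third LP array or without the third 21EX array, and Top2a and Ube2c, 2 of the 12, were then at adjusted p of 0.104 and 0.0818 in one case and 0.118 and 0.131 in the other. Both missed the threshold without other arrays as well, Top2a without the second LP array (0.0895) or the second 21EX array (0.0508) and Ube2c without the first LP array (0.0666). The replication count was 2 without the third LP array or the third 21EX array, and 3 without the second of either group.

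Cytoskeletal genes other than those of the sarcomere were also lower. Of 22 actin and microtubule genes 11 fell and 1, Fam107a, rose, with a median of −0.40, and the count of falls was 7 without the second LP array. Tmsb10, which sequesters actin monomers, was at 10.32, 10.03 and 10.19 in LP and at 11.04, 10.78 and 11.22 in 21EX (difference −0.83 ± 0.13, adjusted p = 0.00145). The tubulin Tuba1a was at 10.18, 9.82 and 9.87 in LP and at 10.49, 10.75 and 10.62 in 21EX (difference −0.66 ± 0.11, adjusted p = 0.00172), and Clasp1, which binds growing microtubule ends, differed by −0.45 ± 0.07 (adjusted p = 0.000918). Among 24 sarcomere and Z-disc genes, 2 rose and none fell, with a median of 0.01. None of the 10 cardiomyocyte markers passed by limma, also at an unadjusted p under 0.05, or by Cyber-T. Whether a difference could be seen at the brightness of these markers was not tested. The load-responsive genes Nppb and Acta1 were not called, with differences of −0.48 and −0.57 and adjusted p of 0.231 and 0.215, and in both the third LP array lay within the range of the 21EX arrays. Without that array Acta1 differed by −0.90 (adjusted p = 0.0194).

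A few growth factor and vascular genes differed, in either direction. Of 25 genes of insulin, IGF and mTOR signalling 5 rose and 2 fell, and of 27 angiogenic genes 1 rose and 2 fell. Of all genes, 1.51% rose and 2.67% fell, and the small counts in this paragraph were not tested against these shares. The insulin-like growth factor carrier Igfbp3 was at 8.37, 7.95 and 8.07 in LP and at 7.09, 7.25 and 7.34 in 21EX (difference 0.90 ± 0.14, adjusted p = 0.00114), while Igfbp7, another carrier, was at 11.25, 11.19 and 11.31 in LP and at 11.90, 11.87 and 11.91 in 21EX (difference −0.64 ± 0.09, adjusted p = 0.000706). Foxo3, a transcription factor held out of the nucleus by Akt, was higher by 0.52 ± 0.09 (adjusted p = 0.00342). The lymphatic growth factor Vegfc was lower (−0.54 ± 0.10, adjusted p = 0.00522). Of 22 cardiac transcription factors 1 rose and 2 fell, with Gata4 lower (−0.44 ± 0.08, adjusted p = 0.00245) and Gata6 higher (0.46 ± 0.10, adjusted p = 0.0106) in LP. Gata6 missed the threshold without the third LP array (adjusted p = 0.0582), the second 21EX array (0.0609) or the third (0.0628). Kcne1, a subunit of the slow potassium channel, was at 6.11, 6.00 and 5.47 in LP and at 6.53, 6.81 and 7.16 in 21EX (difference −0.97 ± 0.21, adjusted p = 0.0126), but its adjusted p was 0.077 without the third LP array and 0.0866 without the third 21EX array. Hecw2, a ubiquitin ligase of the HECT type, was at 6.14, 6.04 and 6.25 in LP and at 5.11, 5.19 and 4.96 in 21EX (difference 1.06 ± 0.15, adjusted p = 0.000461). Herpud1, a protein of endoplasmic reticulum quality control, differed by 0.94 ± 0.13 (adjusted p = 0.000444).

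Endothelial markers had a mean log2 level of 9.02 to 9.20 in LP arrays against 9.27 to 9.31 in 21EX arrays, with no overlap. Such separation was common, and the means of the fibroblast, lymphatic endothelial, B and T cell, erythroid, adipocyte and brown adipocyte markers did not overlap either. Of 10 endothelial markers measured, 1 fell and none rose, with a median of −0.24, and 7 passed an unadjusted p under 0.05, of which 1 was higher. For that limit the share of all genes was not counted. The part of endothelial content in the lower basement membrane genes and in the lower level of Aplnr, which endothelial cells express, was not tested. Among other cell types, the scavenger receptor Cd163 of resident macrophages was at 8.17, 8.03 and 8.16 in LP and at 7.11, 7.38 and 7.32 in 21EX (difference 0.84 ± 0.11, adjusted p = 0.000444), and it was the single riser among 12 macrophage markers, whose median was −0.05. Of 10 adipocyte markers 2 rose, Lipe (0.82 ± 0.17, adjusted p = 0.00936, and 0.0593 without the third 21EX array) and Plin4 (0.54 ± 0.09, adjusted p = 0.00227), which heart muscle cells also express. At an unadjusted p under 0.05, 5 of the 10 passed, each higher in LP, and Cyber-T passed 5, each higher. The fat cell markers Car3 (1.46, adjusted p = 0.09, and 0.0391 without the second LP array) and Adipoq (0.93, adjusted p = 0.323) overlapped between the groups, and 5 of the 10 markers had a mean log2 value under 5. The mean log2 level of the adipocyte markers was 6.51 to 6.87 in LP and 6.25 to 6.36 in 21EX arrays, and its part in the fatty acid results was not tested.

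Sedentary arrays showed which of the 2 states lay further from rest. For the 65 genes higher in LP, the Sed/NP mean was nearer to 21EX than to LP in 59, with a median of 0.86 for LP minus Sed/NP and of −0.12 for 21EX minus Sed/NP. For the 43 genes lower in LP it was nearer to 21EX in 26, with medians of −0.53 for LP minus Sed/NP and 0.44 for 21EX minus Sed/NP. The Sed/NP mean lay between the LP and 21EX means for 47 of the 65 and for 41 of the 43. These values share the LP and 21EX arrays with the comparison itself and are given as levels, with no test. Arntl, for example, averaged 6.34 in LP, 8.17 in 21EX and 7.25 in Sed/NP arrays, and Per1 averaged 8.12 in LP, 6.91 in 21EX and 7.31 in Sed/NP arrays, so that for both genes the sedentary level lay in between. Col3a1, by contrast, averaged 10.76 in LP arrays, 11.51 in 21EX and 11.47 in Sed/NP.

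**Figure D3:**
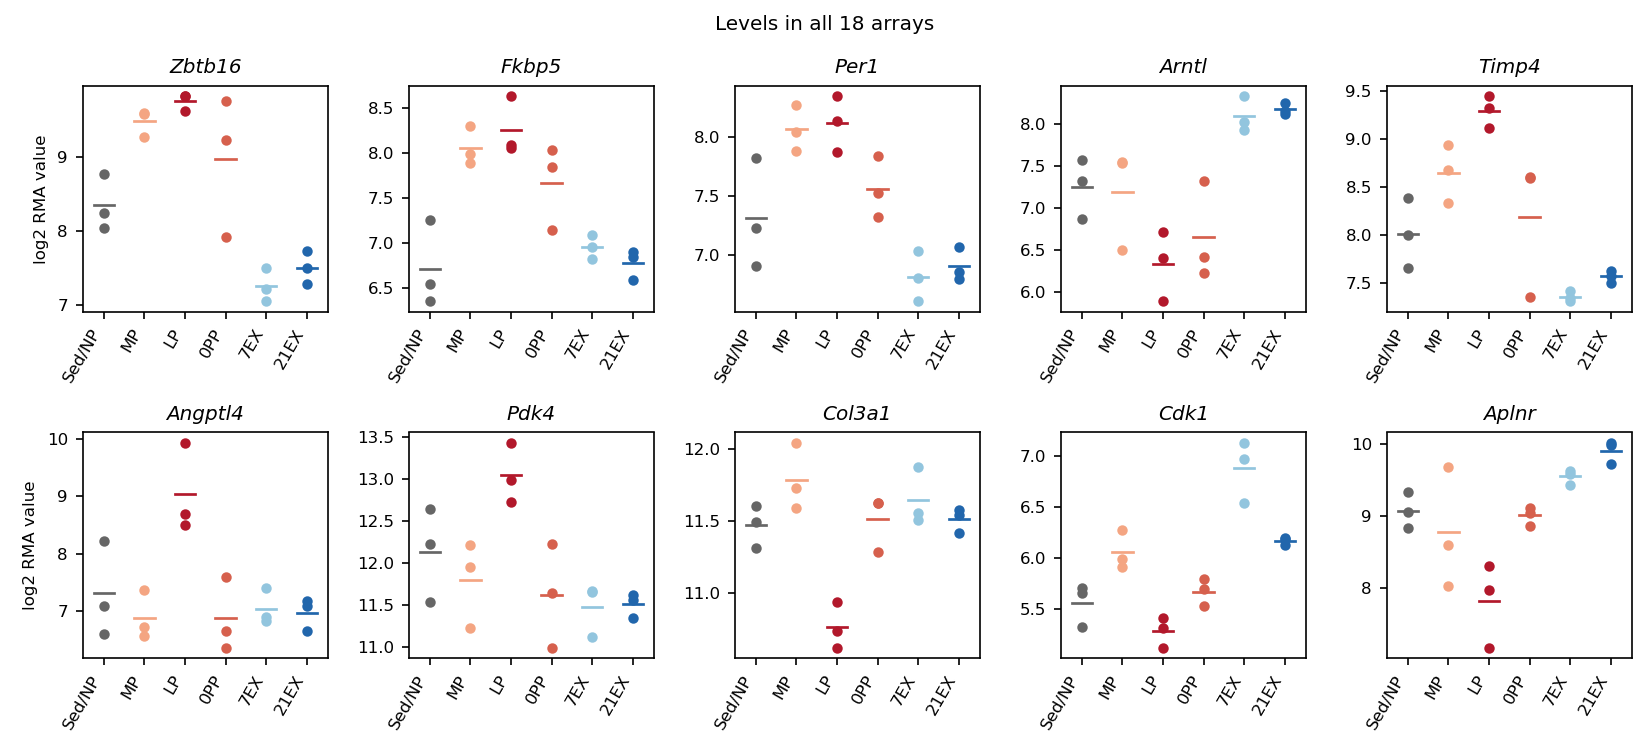
Log2 RMA values of 10 genes in the 3 arrays of each of the 6 groups, with points for arrays and lines for group means, and with the vertical axis set for each gene. Zbtb16, Fkbp5 and Per1 are high in both MP and LP, Angptl4 and Pdk4 are high in LP among the pregnancy groups, and Cdk1 is highest in 7EX.

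The earlier stages, MP and 7EX, offered the same contrast of pregnancy with running in 6 arrays that the comparison of LP with 21EX did not use. Of the 65 genes higher in LP, 60 had a higher mean in MP than in 7EX, where 50.6% of all genes did, and 19 passed an adjusted p of 0.05 in that direction, where 0.522% of all genes did. Of the 43 genes lower in LP, 36 had a lower mean in MP (49.4% of all genes) and 10 passed (0.308% of all genes). No gene of either set passed in the opposite direction. The size was smaller, with a median of 1.02 for LP minus 21EX and 0.50 for MP minus 7EX among the higher genes, and −0.92 and −0.50 among the lower ones. All arrays entered 1 fit and 1 normalization, and the 2 contrasts share no array. The 3′ minus 5′ signal of beta-actin was higher in each MP array than in each 7EX array, and its part in MP minus 7EX was not tested.

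Zbtb16 differed by 2.24 in LP minus 21EX and by 2.22 in MP minus 7EX (adjusted p = 0.00115 for the earlier stage), Fam107a by 1.80 and 2.64 (6.23e-05), Per1 by 1.21 and 1.25 (0.00307) and Fkbp5 by 1.48 and 1.10 (0.0251). For Angptl4 the differences were 2.07 and −0.15 (adjusted p = 0.951 for the earlier stage), for Pdk4 1.54 and 0.32 (0.83), for Acot1 1.22 and −0.03 (0.985) and for Col3a1 −0.75 and 0.14 (0.823). Counted over lists, MP minus 7EX had 9 of 26 glucocorticoid targets and 5 of 16 clock output genes higher, 4 of 29 mitotic genes lower, and none of the 24 fatty acid, 21 PPAR or 25 collagen genes past the threshold of limma in either direction. At an unadjusted p under 0.05, 2 fatty acid genes, 2 PPAR targets and 5 collagen genes passed in MP minus 7EX. The difference between the 2 contrasts was itself tested and passed for 5 genes of 18193 (0.0275%) and for 11 probe sets of 45037 (0.0244%). Of the 5 genes, Ehhadh belongs to the PPAR list. The test of the difference did not pass for Angptl4, Pdk4, Acot1 or Col3a1, so for these a difference between the early and the late contrast was not shown.

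**Figure D4:**
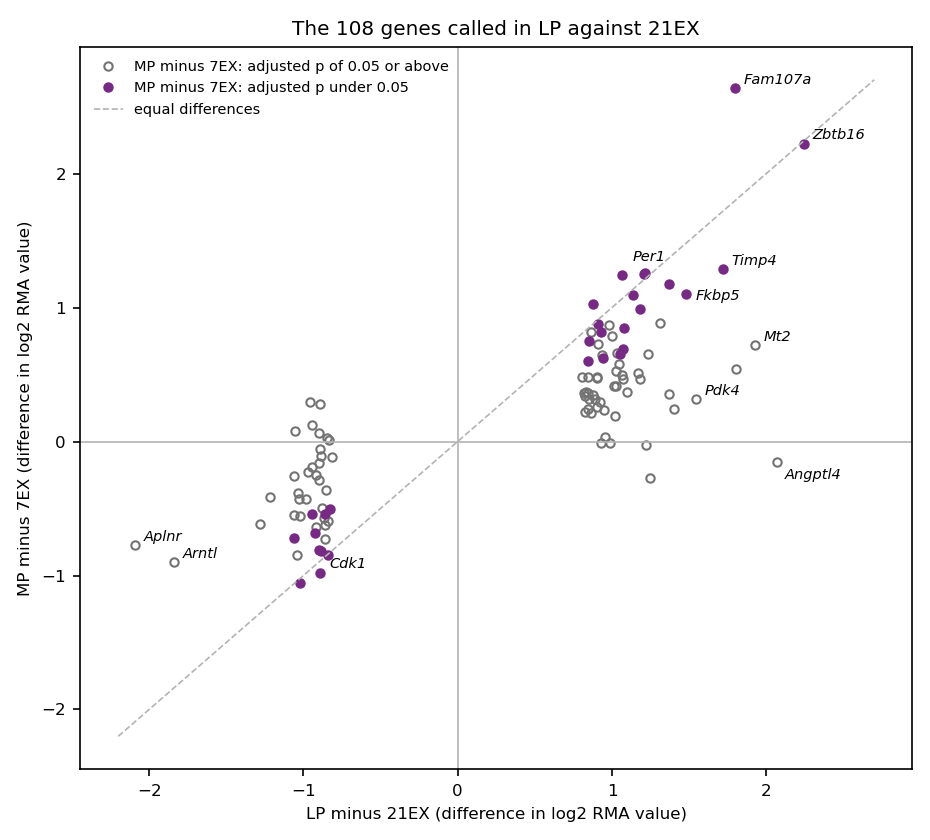
Difference in log2 RMA value for LP minus 21EX (horizontal) and MP minus 7EX (vertical) of the 108 called genes, with filled points where MP minus 7EX had an adjusted p under 0.05 and a dashed line where both differences are equal. Most points share their sign in both contrasts, Zbtb16 lies on the line and Angptl4 lies near 0 on the vertical axis.

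Probe sets of a gene sometimes differed. At a dimmer probe set, but not at the brightest, 30 genes were called, 22 higher and 8 lower in LP, and for 5 of these the brightest probe set differed by under 0.2. Fabp4, a fatty acid binding protein of endothelial and fat cells, differed by 1.05 at a probe set with a mean of 8.21 and by 0.19 at one with a mean of 13.54. Dcn, the collagen-binding proteoglycan decorin, differed by 0.93 at a mean of 5.82 and by 0.09 at a mean of 12.79. The others were Chmp4c (1.04 and 0.09), Clip1 (0.85 and 0.19) and Nr2c2 (0.84 and −0.00). Zbtb16 was called at each of its 3 probe sets and Ift122 at both, while Fmo2 was called at 4 of 5.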

How the data were processed

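Left ventricles of female mice, freed of atria and right ventricle, were frozen, and RNA pooled from 2 to 3 hearts was hybridised to Affymetrix whole-genome mouse arrays, 3 arrays per group. The deposited values are log2 expression values, made by the authors with RMA in R 2.12.2 over all 18 arrays (background correction, quantile normalization and summary per probe set, with no filter), so equal distributions are imposed and a shift common to most genes cannot be seen. After removal of 64 control probe sets, 45037 were tested and 34945 matched 1 gene each, 18193 genes in all. All 6 groups were fitted in 1 linear model with limma 3.58.1 in R 4.3.3 (12 residual and 6.45 prior degrees of freedom), with Benjamini-Hochberg adjustment over all probe sets. Each gene was read at its single-gene probe set of highest mean, and errors are model standard errors. A Bayes-regularised test of the 2 groups alone, of the kind the methods name, was rebuilt as the Cyber-T alternative with a window of 101 and a prior weight of 10, which may differ from the authors' settings. The fit was tested on simulated data. The replicate numbers do not pair the arrays (correlation of deviations −0.09, −0.07 and −0.08). With 3 against 3 arrays an exact permutation test cannot go below p = 0.1, and the number of arrays limits the precision. Alternatives covered the fold limit, test, normalization, filter, probe set summary, covariate, block and each array left out.

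The 60 gene lists and the comparison were chosen with earlier results of these data known. Named genes were the 12 largest rises and falls with no overlap, up to 4 members of each list by p, genes called at another probe set alone, and genes the study names. Those chosen after their values were seen were Acot1, Birc5, Cd36, Cebpb, Ciart, Clock, Cpt1a, Cyp1b1, Dbp, Fabp3, Lcn2, Lingo3, Lpl, Map3k6, Mt3, Mt4, Nfil3, Npas2, Nr1d1, Rab31, Serpina3n, Slc27a1, Tef, Top2a, Tsc22d3, Ube2c and Ucp3. Promoters were RefSeq sequences of GRCm38.p6, searched on both strands over 250 bases before the start.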

Additional observations from a re-analysis of the deposited data

Results flagged for a closer look

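For 5 genes the difference between pregnancy and running was not the same at the later stage (LP minus 21EX) as at the earlier one (MP minus 7EX), by a test of the difference itself in limma with Benjamini-Hochberg adjustment. Alas2, the first enzyme of heme synthesis in red cell precursors, differed by −0.52 at the later stage and by 1.39 at the earlier one (later minus earlier −1.91 ± 0.19 SE, adjusted p = 0.000194). Alas2 and Tent5c, described next, are themselves among 6 measured erythroid markers, whose mean log2 level was 4.93 to 5.22 in LP arrays and 5.30 to 5.46 in 21EX arrays. In MP minus 7EX the median of the 6 was 0.71, with 2 past the adjusted p and 4 past an unadjusted p under 0.05, each higher in MP, and the part of red cell content was not tested. Tent5c, a poly(A) polymerase, differed by −0.64 and 1.48 (later minus earlier −2.12 ± 0.25, adjusted p = 0.00103), and the later-stage difference passed on its own only without the first LP array (−0.77, adjusted p = 0.0364). Ehhadh differed by 0.72 at the later and −0.27 at the earlier stage (later minus earlier 0.98 ± 0.16, adjusted p = 0.0417). The small GTPase Rab31 differed by −0.55 and 0.24 (later minus earlier −0.79 ± 0.11, adjusted p = 0.0116), and Lingo3 by −0.89 and −0.05 (later minus earlier −0.84 ± 0.14, adjusted p = 0.0466).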

How the results depend on the processing

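The 138 genes called at any probe set became 950 with no fold limit (384 higher and 566 lower in LP) and 76 with the mean of a gene's probe sets (53 and 23), and leaving out 1 array gave 100 to 159. The 108 called at the brightest probe set became 760 with no fold limit, and leaving out 1 array gave 77 to 118. Of the 108, 69 were also called with the mean of probe sets, 73 without the third LP array, 75 without the third 21EX array and 93 with only the arrays of LP and 21EX, and none of the 108 changed sign under any alternative run. With the 3′ minus 5′ signal of beta-actin as a covariate, 93 of the 108 were also called. The 760 genes past the adjusted p alone became 418 with only those 6 arrays, and leaving out 1 array gave 396 to 625. The replicate block gave 132, 106 and 670 genes for the 3 counts, against 138, 108 and 760, and moved no count of genes by over 1.5 times. Cyber-T called 158 and 113. Nr2c2, at −0.00 at its brightest probe set, ranged over −0.0428 to 0.0643 when 1 array was left out (0.0643 without the third LP array, 0.00932 without the first 21EX array) and was 0.25 with the mean of probe sets (cause not tested). Over the alternatives, 22 of 113 single genes lost an adjusted p under 0.05 in 1 or more of them, 14 gained one and Nr2c2 alone turned sign. Probe sets under a mean log2 value of 5 lie near background and have less certain differences.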
